A study of Rattus norvegicus with 30 samples.

Results

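Isolated working hearts of sucrose-fed rats were perfused with glucose or with mannitol, and their left ventricular transcripts were compared. The 10 samples were chosen by their titles, 5 perfused with glucose and 5 with mannitol, out of 30 samples in all. All rats were male Sprague Dawley animals aged 16 to 18 weeks. The 10 rats compared had been kept on sucrose-rich food for between 8 and 10 weeks, a diet that the labels describe as one that makes rats insulin resistant. All 10 hearts were excised under chloral hydrate into ice-cold buffer and then worked outside the body for 60 min at normal temperature and oxygen supply, at a filling pressure of 15 cm H2O and an afterload of 100 cm H2O. In their Krebs-Henseleit buffer calcium was at 2.5 mmol/L, the ketone bodies DL-beta-hydroxybutyric acid and acetoacetate were at 10 and 1 mmol/L, and propionate, a short fatty acid, was at 2 mmol/L. Glucose was present at 25 mmol/L in the buffer of the first group, and mannitol, a sugar alcohol that serves as osmotic control, at the same concentration in that of the second. Ketone bodies and propionate were thus offered in both groups, the labels name no insulin in the buffer, and the groups differed in whether glucose was among the fuels. Chow-fed hearts perfused with the same buffers (5 and 5) served as the other diet, and 5 non-perfused hearts of each diet gave the level before perfusion.

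The heart burns fatty acids, ketone bodies, lactate and glucose, and shifts between them as their supply changes. Glucose that enters the cell is phosphorylated by hexokinase, and glucose 6-phosphate leads the transcription factors MondoA and ChREBP, paired with their partner Mlx, to carbohydrate response elements of their target genes. Txnip, the best known target, encodes an alpha-arrestin that binds thioredoxin and lowers the uptake of glucose, so that its transcript reports on sugar in the cell.

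The question of this comparison is which transcripts differed when glucose was added to hearts that already had ketone bodies and propionate to burn, after a diet that induces insulin resistance. Txnip was higher with glucose, by 1.26 on the log2 scale (SE 0.19), or 2.40-fold (95% interval 1.83 to 3.15), n = 5 hearts per group. It was the only one of 18333 genes tested that passed an adjusted p of 0.05 (limma, Benjamini-Hochberg adjusted p = 0.00938). The other genes of glucose uptake, glycolysis, hexosamine synthesis, pyruvate oxidation, fatty acid oxidation and ketone use did not pass. No gene was called lower with glucose. In whole tissue such as this, fewer cells of a type and less RNA per cell cannot be told apart.

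Each sample was measured on 1 one-colour Agilent array, and a level is the log2 of a gene's processed signal minus the 75th percentile of its array. A difference of 1 is therefore a 2-fold difference, and a negative level lies below that percentile. Between 50.9% and 73.2% of the probes were well above background on the mannitol arrays, and between 59.4% and 74.6% on the glucose arrays. All 11 cardiomyocyte markers were above background on all 10 arrays. The labels call the samples biological replicates, and 5 arrays per group limit the precision.

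Some arrays stand apart by their handling or by their values. Both groups were present on 4 slides, while the slide of mannitol replicate 1 carried no other array. The glucose arrays lay in row 2 of their slides, as did the other 4 mannitol arrays, while mannitol replicate 1 lay in row 1. Every mannitol array lay in column 1 of its slide, and every glucose array in column 3 or 4. Column and buffer therefore cannot be told apart, within a slide as well as between slides. Mannitol replicate 5 was among the 4 arrays of the series with the noisiest negative controls. In a principal component analysis of the 10 arrays, 21.4% of the variance lay on the first component, and differences between slides made up 89.4% of that, against 0.675% for the buffer. With more slides than buffers among only 10 arrays, slide takes the larger share even where neither matters. The shares are therefore not directly comparable. Of the first 4 components the buffer had its largest share on the third, which held 13.6% of the variance (19.1% of it by buffer and 6.52% by slide). Glucose replicate 1 stood apart in inflammatory genes, as described with those genes.

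The difference between the buffers was small for most genes. Its median over all 18333 genes was 0.02, the middle of the distribution ran from -0.08 to 0.12 (quartiles), and 55.9% of the genes had the higher mean with glucose. The 95% interval of the difference lay within 1 log2 unit of 0 for 90.6% of the genes, and its median half-width was 0.30. The single call in the upward direction is 0.00545% of the genes tested, and 0 genes were called downward (limma), where 284 had an unadjusted p under 0.05. Upward, 644 genes (3.51%) had an unadjusted p under 0.05, and downward the 284 are 1.55%, which makes 928 genes (5.06%) in both directions. The 5 glucose values lay wholly above the 5 mannitol values for 107 genes (0.584%) and wholly below for 39 (0.213%). If the buffers made no difference, separation in either direction would have a probability of 0.00794 per gene (exact permutation). Both shares together are close to that, so absence of overlap does not by itself set a gene apart. Differences of at least 2-fold were seen for 26 genes upward and 64 downward, and 26 of these 90 genes were above background on all 10 arrays.

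**Figure D1:**
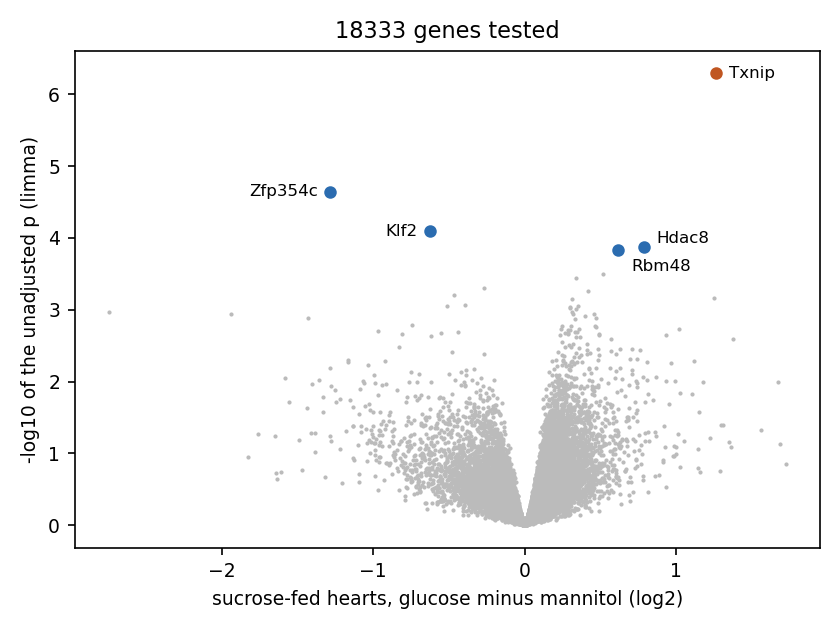
Each grey point is 1 of 18333 genes, with the log2 difference of glucose and mannitol means in hearts of sucrose-fed rats on the horizontal axis and -log10 of limma's unadjusted p on the vertical axis. Txnip (orange, 1.26) lies above all other genes, and the 4 genes of next smallest p that have a symbol (blue) did not pass the adjustment.

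Txnip was measured by 1 probe that was above background on all 30 arrays. Its level with mannitol was 3.13, 2.83, 2.99, 2.50 and 2.69 in replicates 1 to 5. The glucose hearts had levels of 4.22, 4.18, 3.46, 4.19 and 4.40. Glucose replicate 3 was low against the other 4 glucose hearts but still above every mannitol heart, so the groups did not overlap. The means were 2.83 ± 0.25 (SD, n = 5) with mannitol and 4.09 ± 0.36 (SD, n = 5) with glucose. An exact two-sided permutation test over the samples gave p = 0.00794, the smallest that 5 against 5 samples can give. That value follows from the absence of overlap. Txnip was put to this test because it was called in these data, so the test adds no separate support.

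Within the 4 slides that held both groups, the Txnip difference was 1.36, 1.32, 1.68 and 0.77, with glucose higher on each. The sign on each slide follows from the absence of overlap, and on each slide the buffers also differed in column. Over all genes tested, 9.28% had glucose higher on all 4 slides and 5.69% had mannitol higher on all 4. Leaving out 1 array gave Txnip differences from 1.18 (without mannitol replicate 4) to 1.42 (without glucose replicate 3), and the other 16 alternatives gave 1.23 to 1.37. The call ended when any one of mannitol replicate 5 or glucose replicates 1, 2, 4 and 5 was left out (adjusted p from 0.0502 to 0.0702). The call also ended when these groups were fitted without the other 20 arrays (adjusted p = 0.675, unadjusted p = 3.68e-05), with the replicate number as a block (0.0654), without the 4 noisy arrays and mannitol replicate 1 together (0.0689) and in the authors' deposited values (0.155).

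**Figure D2:**
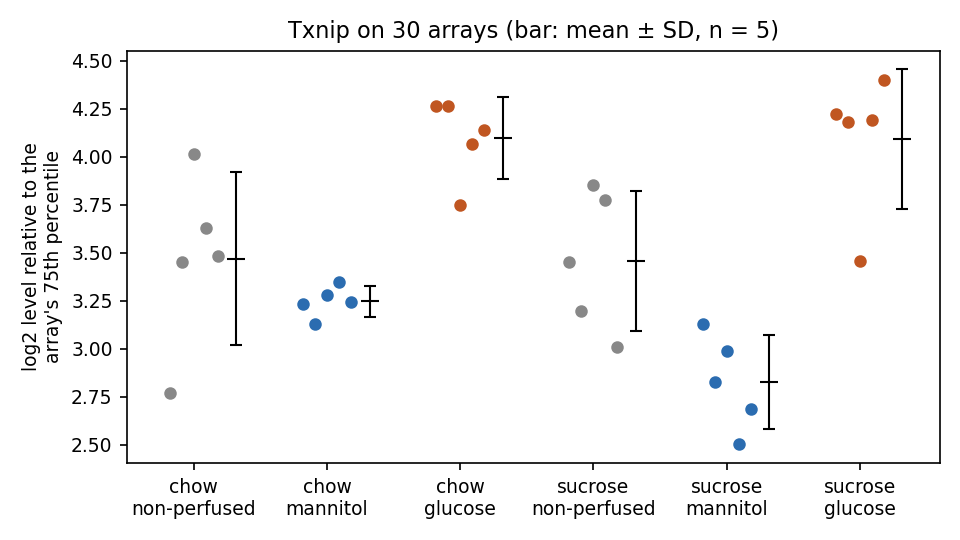
Points are the log2 levels of Txnip relative to the 75th percentile of each of 30 arrays, in 6 groups of 5, and bars give the mean ± SD. The 5 glucose arrays of sucrose-fed rats (3.46 to 4.40) lie above the 5 mannitol arrays (2.50 to 3.13), and the mean of the non-perfused arrays of that diet (3.46) lies between the means of both buffers.

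In non-perfused hearts of sucrose-fed rats the Txnip level was 3.46 ± 0.36 (SD, n = 5), between those of both buffers. Against these hearts the difference was -0.63 with mannitol and 0.63 with glucose, and the non-perfused values (3.01 to 3.85) overlapped both perfused groups. Those differences share the non-perfused arrays. In chow-fed hearts the level was 3.23, 3.13, 3.28, 3.35 and 3.24 with mannitol and 4.26, 4.26, 3.75, 4.06 and 4.14 with glucose. The chow groups did not overlap either, and the difference was 0.85 (SE 0.19; 1.80-fold, 95% interval 1.37 to 2.37; exact permutation p = 0.00794). Here too the permutation p follows from the absence of overlap. Over all genes it did not pass in chow (limma adjusted p = 0.999, unadjusted p = 0.000146, rank 2 of all genes). The glucose difference of Txnip was larger by 0.41 in sucrose-fed hearts (SE 0.27, 95% interval -0.14 to 0.97), and this diet difference did not pass (adjusted p = 0.998).

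The other alpha-arrestins are relatives of Txnip that act as adaptors in the traffic and breakdown of membrane proteins. Of 6 members of the family, Txnip included, 4 were tested and 1 was called, which was Txnip itself. The median difference of the 4, with Txnip among them, was 0.33 against 0.02 over all genes. Arrdc5 did not pass the filter on low signal, and no probe was matched to Arrdc4. Arrdc3, which encodes an adaptor that lowers the surface level of beta-adrenergic receptors, was at -2.71, -2.01, -2.19, -1.72 and -2.62 with mannitol. The glucose hearts lay at -1.30, -2.13, -1.47, -1.57 and -2.38, so that 3 of 5 glucose values exceeded every mannitol value. Its difference of 0.48 (SE 0.24, unadjusted p = 0.0581) did not pass, was 0.41 in chow, and changed sign on 1 of 4 slides (-0.41). Arrdc1 differed by 0.17 (SE 0.11) and Arrdc2 by -0.34 (SE 0.31), both with overlap.

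Thioredoxin itself, the protein partner of Txnip, is encoded by Txn1 and is kept reduced by the reductase of Txnrd1. Txn1 differed by 0.04 (SE 0.08) and Txnrd1 by 0.05 (SE 0.09) (95% intervals -0.11 to 0.20 and -0.12 to 0.23). Of 29 thioredoxin, NRF2 and antioxidant genes tested, 0 were called by limma and 1 had an unadjusted p under 0.05, Prdx2, a peroxiredoxin gene (-0.24, SE 0.09). Their median was 0.04. Hmox1, which encodes a heme-degrading enzyme, had the largest positive difference (0.35, SE 0.28).

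Among carbohydrate response genes, targets and members of the MondoA and ChREBP system, 19 of 24 were tested, 1 was called (Txnip) and the median was 0.04. The unadjusted p was under 0.05 for 3 of them, all with glucose higher, against 3.51% of all genes. Klf10, a transcription factor gene induced by TGF-beta and by sugars, was at 1.98, 2.12, 2.11, 2.26 and 2.12 with mannitol. Its glucose values were 2.97, 2.48, 2.06, 2.54 and 2.62. Glucose replicate 3, the array of lowest Txnip among the glucose hearts, was also the lowest in Klf10 and the only one of the 5 below the highest mannitol value. The difference of 0.42 (SE 0.18, unadjusted p = 0.0327) did not pass the adjustment (adjusted p = 0.97), and in chow it was 0.45 (SE 0.18), with 4 of 5 glucose values above every mannitol value.

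The third gene, Mid1ip1, encodes an activator of fatty acid synthesis and differed by 0.39 (SE 0.19). Lipogenic targets of ChREBP were near or below 0, with 0.12 for Acly, -0.09 for Fasn, -0.23 for Elovl6 and -0.34 for Scd (SE from 0.10 to 0.50). Pklr, the liver pyruvate kinase gene on which the carbohydrate response element was first studied, differed by -0.46 (SE 0.51). Of the sensors, Mlxipl (ChREBP) differed by 0.25 (SE 0.17) and Mlx by 0.02 (SE 0.07), and no probe was matched to Mlxip (MondoA).

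Genes of glucose uptake and glycolysis did not pass between the buffers. All 32 listed genes were tested, 0 were called (limma), 0 had an unadjusted p under 0.05, and the median was 0.05. The difference was 0.10 (SE 0.08) for Slc2a4, the insulin-responsive glucose transporter, 0.08 (SE 0.17) for Slc2a1, the transporter of basal uptake, and 0.20 (SE 0.12) for Hk2, the main hexokinase of muscle. Pfkfb3, which encodes a maker of the phosphofructokinase activator fructose 2,6-bisphosphate, had the largest value of the list (0.46, SE 0.35), and its heart relative Pfkfb2 was at -0.02 (SE 0.17). The 95% interval lay within 1 log2 unit of 0 for 31 of the 32 genes.

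Branches off glycolysis gave few differences. In the hexosamine pathway, which makes the sugar donor of O-GlcNAc, 12 genes were tested, 0 were called (limma), 0 had an unadjusted p under 0.05 and the median was 0.06. Gfpt1 and Gfpt2, whose enzymes start that pathway, differed by 0.15 (SE 0.19) and -0.03 (SE 0.22), and Gfpt1 was above background on 4 mannitol and 3 glucose arrays. The authors' deposited values gave a Gfpt1 difference of 1.02, which did not pass. Of 19 glycogen genes tested 0 were called, and 4 had an unadjusted p under 0.05, 2 in each direction. Ppp1r3d, which encodes a subunit that brings protein phosphatase 1 to glycogen, was at 2.10, 1.98, 2.03, 2.13 and 2.19 with mannitol and at 2.24, 2.44, 2.57, 2.28 and 2.33 with glucose. The groups did not overlap, and the difference was 0.29 (SE 0.08, adjusted p = 0.83). A dimmer Ppp1r3d probe, also above background on all 10 arrays, gave 0.09. The branching enzyme gene Gbe1 differed by -0.33 (SE 0.15) and the phosphorylase kinase gene Phka1 by -0.38 (SE 0.17).

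Pyruvate dehydrogenase links glycolysis to the citric acid cycle and is switched off by kinases and on by phosphatases. Of 13 genes tested 0 were called (limma), 1 had an unadjusted p under 0.05, and the median was 0.07. That gene was Pdp2, which encodes an activating phosphatase, with 0.37 (SE 0.15, unadjusted p = 0.023) and glucose higher on 4 of 4 slides. Its 5 values overlapped between the buffers (4.10 to 4.54 with mannitol and 4.29 to 5.03 with glucose). The kinase gene Pdk4, which opposes it, differed by 0.31 (SE 0.23), with mannitol replicate 1 (0.02) the highest of the 10 values.

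Of 34 genes of fatty acid oxidation and PPAR targets, all were tested, 0 were called (limma), 0 had an unadjusted p under 0.05, and the median was 0.05. Angptl4, whose protein blocks the lipase that frees fatty acids from lipoproteins, was at 3.75, 2.24, 1.32, 2.81 and 0.70 with mannitol and at 3.68, 3.16, 2.56, 3.04 and 3.02 with glucose. The mannitol hearts spread from the lowest to the highest of the 10 values, and the difference of 0.93 (SE 0.51) did not pass (adjusted p = 0.997). Cpt1a, which encodes an enzyme of fatty acid import into mitochondria, differed by 0.04 (SE 0.11), and Ucp3, a mitochondrial carrier gene, by -0.36 (SE 0.43). Of 21 triglyceride and lipid droplet genes 0 were called and 0 had an unadjusted p under 0.05, with 0.33 (SE 0.16) for Lipe, the gene of hormone-sensitive lipase, and 0.39 (SE 0.25) for Dgat2, which makes triglyceride. A dimmer Lipe probe, also above background on all 10 arrays, gave 0.10.

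Genes for the fuels common to both buffers did not pass either. Of 14 genes of ketone body and propionate use, 0 were called (limma), 0 had an unadjusted p under 0.05, and the median was 0.02. Oxct1, which encodes the enzyme that commits ketone bodies to oxidation, differed by 0.05 (SE 0.09), Bdh1, the hydroxybutyrate dehydrogenase gene, by 0.14 (SE 0.20), and Pcca, a subunit gene of propionyl-CoA carboxylase, by -0.11 (SE 0.16). Acss2, an acetyl-CoA synthetase gene, differed by -0.16 (SE 0.15).

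Genes of mitochondrial respiration and of cytosolic ribosomes had slightly higher means with glucose in the main scaling. Over all genes 3.51% had an unadjusted p under 0.05 upward (limma), and 55.9% had the higher mean with glucose. Of 73 oxidative phosphorylation subunits tested 0 were called and 7 had an unadjusted p under 0.05, all upward (median 0.08, 57 of 73 above 0). Of 78 cytosolic ribosomal protein genes 0 were called and 10 had an unadjusted p under 0.05, all upward (median 0.09, 62 of 78 above 0). Uqcr10, a complex III subunit gene, differed by 0.28 (SE 0.08) and Rpl18 by 0.18 (SE 0.06), without overlap in Rpl18. These medians depended on the scaling, and with quantile normalization they were -0.0017 for oxidative phosphorylation and 0.034 for ribosomal proteins, against 0.011 over all genes. Of 11 cardiomyocyte markers 10 were above 0 (median 0.09), and their summed level was lowest in mannitol replicates 1 and 2 (3354 and 4131, against 4366 to 5114 in the other 8 hearts). These 2 hearts were also the lowest of the 10 in oxidative phosphorylation genes, whose median was 0.069 without replicate 1 and 0.056 without replicate 2. The part of the cardiomyocyte markers in these values was not tested. Of 67 mitochondrial ribosomal proteins 0 were called and 2 had an unadjusted p under 0.05 (median 0.02). In chow-fed hearts the medians for oxidative phosphorylation and cytosolic ribosomal proteins were -0.028 and -0.016, against -0.015 over all genes.

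**Figure D3:**
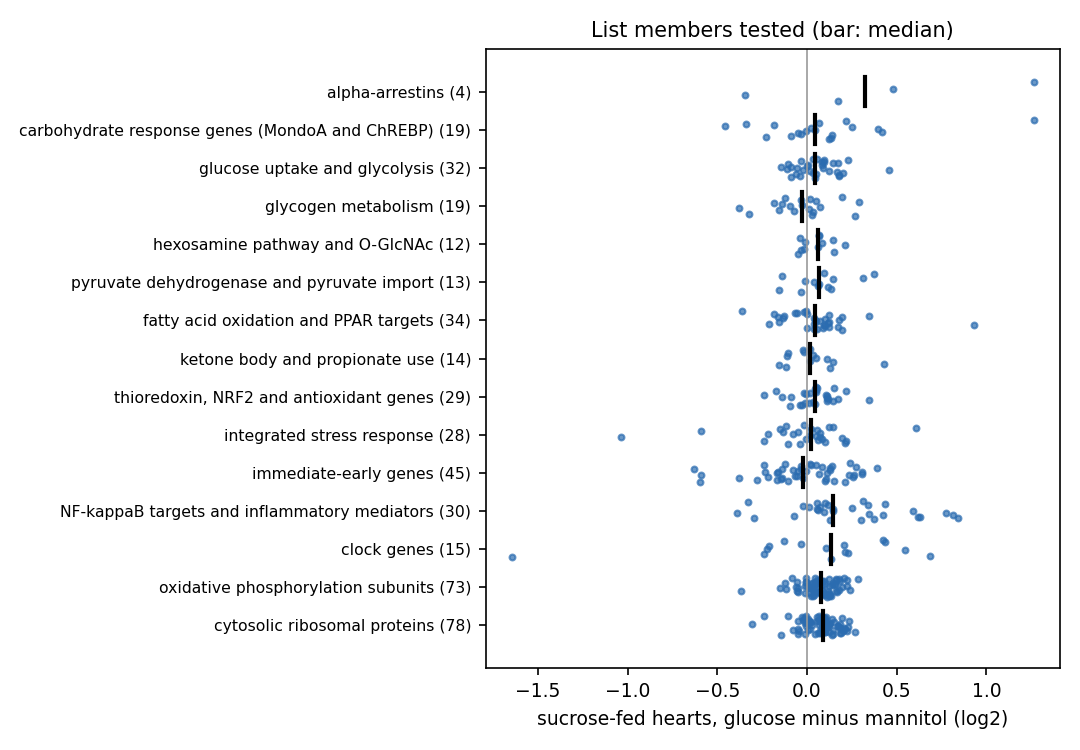
Each point is the log2 difference of glucose and mannitol means of 1 tested gene in hearts of sucrose-fed rats, for 15 of the 44 lists, with the number of genes in brackets and a bar at the median. Txnip (1.26) is the point at the far right of both lists that hold it, and the medians of the other lists drawn lie between -0.03 and 0.14.

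Genes of stress and signalling did not pass either. Of 45 immediate-early genes 0 were called (limma) and 1 had an unadjusted p under 0.05 (median -0.02). The inducible factor genes Fos and Atf3 differed by 0.26 (SE 0.67) and 0.21 (SE 0.40), with overlap in both. The gene of small p, Klf2, encodes a transcription factor that flow induces in endothelium and keeps it quiescent. Its level with mannitol was 0.43, 0.23, 0.70, 0.46 and 0.72. In glucose hearts it was -0.29, -0.22, -0.31, 0.11 and 0.11, below every mannitol value. The difference was -0.63 (SE 0.13, adjusted p = 0.491), and -0.19 in chow (SE 0.13). In sucrose-fed hearts it was negative on 4 of 4 slides, as the absence of overlap requires. Of the endothelial markers tested, 4 of 8 were above 0, and 1 had an unadjusted p under 0.05, Cldn5, a tight junction gene (-0.29, SE 0.13). Their summed level was 44.1 to 52.5 with mannitol and 44.9 to 55.8 with glucose (in units of the 75th percentile of the array). Their part in the Klf2 value was not tested.

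Of 28 genes of the integrated stress response, 0 were called (limma) and 2 had an unadjusted p under 0.05, both downward (median 0.02). Gdf15, which encodes a stress-induced hormone, was at 0.42, 0.54, 0.46, 0.34 and 0.96 with mannitol. The glucose hearts were at 0.10, -1.16, -0.53, -0.60 and -0.27, all below the mannitol values. Its difference of -1.03 (SE 0.35, adjusted p = 0.97) was 0.01 in chow, and the diet difference of -1.04 (SE 0.49) did not pass (adjusted p = 0.988). Its regulators differed less, with 0.10 (SE 0.09) for Atf4, 0.08 (SE 0.12) for Ddit3 and -0.24 (SE 0.09) for Atf5.

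Of 30 inflammatory genes and NF-kappaB targets 0 were called (limma), 3 had an unadjusted p under 0.05, all upward, and the median was 0.14. These were Ccl3 (0.84, SE 0.33) and Cxcl1 (0.81, SE 0.39), which encode chemokines, and Csf3 (0.42, SE 0.15), which encodes a growth factor of neutrophils. Ccl3 was at 3.04, 1.12, -0.02, 1.19 and 1.48 with glucose and between 0.10 and 1.16 with mannitol. Glucose replicate 1 had the highest of the 10 levels for 21 of the 30 genes. The median of the list was 0.07 without that array. The summed level of 10 macrophage markers was 21.96 to 29.1 with glucose and 23.7 to 31.4 with mannitol, and its part in the inflammatory genes was not tested.

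Clock genes follow the time of day and varied between hearts of 1 group. Of 15 tested 0 were called (limma), 0 had an unadjusted p under 0.05, and the median was 0.13. Bmal1, the activator of the clock, was at -0.38, 0.05, -1.48, -2.24 and -0.40 with mannitol and at -2.63, -4.12, -1.22, -3.67 and -1.02 with glucose. Of the glucose hearts 3 lay below all mannitol hearts and the others lay among them (difference -1.64, SE 0.83, adjusted p = 0.994). The repressor gene Ciart (0.69, SE 0.77) and the output gene Dbp (0.54, SE 0.55) had positive differences, with overlap. The labels used here give no time of day for the hearts.

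Of the other lists, 0 genes were called (limma) among 18 hypoxia genes, 21 genes of calcium handling, 18 of extracellular matrix and 28 of sterol synthesis. An unadjusted p under 0.05 was reached by 1, 3, 1 and 2 of them. Vegfa, which encodes a growth factor of vessels, was at 5.22, 5.16, 5.19, 4.81 and 5.10 with mannitol and at 5.75, 5.34, 5.15, 5.41 and 5.46 with glucose. Glucose replicate 3 was the low array of its group, and the difference was 0.33 (SE 0.12, adjusted p = 0.97). The dimmer Vegfa probes, above background on all 10 arrays, gave 0.20, 0.18 and 0.02. Pln, the gene of the calcium pump inhibitor phospholamban, differed by 0.22 (SE 0.09). Tgfb1 differed by -0.20 (SE 0.09) and the collagen gene Col1a1 by -0.28 (SE 0.15), both without overlap between the groups. Nsdhl, an enzyme gene of cholesterol synthesis, differed by -0.32 (SE 0.12).

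Lists of protein quality control held values in both directions. Of 22 heat shock genes 1 had an unadjusted p under 0.05 upward, Hspe1, which encodes a mitochondrial chaperonin subunit (0.14, SE 0.07), and 1 downward, Hspa4, a chaperone gene (-0.20, SE 0.10). Of 36 proteasome subunits the same was true of Psmd9 (0.19, SE 0.09) and Psmb4 (-0.19, SE 0.08). Of 22 genes of the unfolded protein response, Derl3 (0.40, SE 0.18) and Sel1l (0.22, SE 0.10), both of endoplasmic reticulum degradation, had an unadjusted p under 0.05. These 3 lists held 0 called genes (limma), with medians of 0.02, 0.05 and 0.02. Dimmer probes of Hspe1 and Psmd9, above background on all 10 arrays, gave 0.055 and 0.089. Those of Sel1l and Derl3, above background on 4 and 2 of the 10 arrays, gave 0.05 and -0.32.

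No gene was called among 28 of insulin signalling and FOXO targets, 28 of energy sensing and autophagy, 22 of the citric acid cycle, 12 of the pentose phosphate and related pathways, 16 of hypertrophy, 23 of apoptosis and 19 of the interferon response (limma). An unadjusted p under 0.05 was reached by 0, 1, 1, 0, 0, 1 and 0 of them. Klf15, which encodes a transcription factor of heart metabolism, differed by -0.02 (SE 0.09), and Nppb, the gene of B-type natriuretic peptide, by 0.08 (SE 0.33). Atg5, of autophagosome formation, differed by -0.23 (SE 0.10), and Sdhd, a subunit gene of succinate dehydrogenase, by 0.16 (SE 0.06). A dimmer Atg5 probe, above background on all 10 arrays, went the other way (0.05). Rpia, a pentose phosphate enzyme gene, differed by 0.17 (SE 0.09). In all, 42 of 44 lists of pathways and cell types held no called gene.

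The genes of smallest p after Txnip were spread over unrelated functions. Zfp354c, a zinc finger gene, was at -5.14, -4.89, -3.90, -4.72 and -3.02 with mannitol. The glucose values were -5.47, -5.85, -5.77, -5.63 and -5.37, below every mannitol value. It was above background on 3 of 5 arrays in either group, so its difference of -1.28 (SE 0.25, adjusted p = 0.207) rests on low signals. It passed in some other settings, with -1.48 (adjusted p = 0.0186) without mannitol replicate 1 and -1.49 (adjusted p = 0.0108) with the slide as a block, while normexp background correction gave -0.29.

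Rbm48, which encodes a partner of the minor spliceosome, was at -2.16, -2.08, -2.14, -2.20 and -2.46 with mannitol. In the glucose hearts it was at -1.33, -1.57, -1.58, -1.69 and -1.78, without overlap and above background on all 10 arrays. The difference was 0.62 (SE 0.14, adjusted p = 0.542). Hdac8, a histone deacetylase gene, differed by 0.79 (SE 0.18, adjusted p = 0.542) without overlap, and passed without the 4 noisy arrays (0.91, adjusted p = 0.0455).

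Ctf1, the gene of the heart growth factor cardiotrophin 1, was at -2.63, -2.63, -2.47, -2.59 and -2.62 with mannitol and at -2.21, -2.32, -2.17, -2.25 and -2.32 with glucose. All glucose values lay above the mannitol values. The difference of 0.33 (SE 0.09) did not pass (adjusted p = 0.83). Mgme1, a nuclease gene of mitochondrial DNA upkeep, was higher by 0.35 (SE 0.09, adjusted p = 0.83) without overlap. Plaat1, a phospholipid acyltransferase gene, differed by 0.34 (SE 0.08, adjusted p = 0.83) and passed without mannitol replicate 4 (0.43, adjusted p = 0.0352). A dimmer Plaat1 probe, also above background on all 10 arrays, gave a difference of -0.08.

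Other genes of small p or without overlap had higher values with glucose. Rcor2, a corepressor gene, was at -2.89, -2.67, -2.88, -2.78 and -2.65 with mannitol and at -2.51, -2.18, -2.29, -2.22 and -2.57 with glucose (difference 0.42, SE 0.11, adjusted p = 0.83). Lactb2, which encodes a ribonuclease of mitochondria, was at 1.46, 1.40, 1.54, 1.37 and 1.36 with mannitol and at 1.90, 1.68, 1.68, 1.79 and 1.59 with glucose (difference 0.30, SE 0.08, adjusted p = 0.83). Msra, the gene of a methionine sulfoxide reductase that repairs oxidised proteins, was at -0.72, -0.56, -0.76, -0.65 and -0.75 with mannitol and at -0.03, -0.33, -0.54, -0.41 and -0.34 with glucose (difference 0.36, SE 0.12, adjusted p = 0.97). In these 3 genes every glucose heart lay above every mannitol heart, which also makes the difference positive on 4 of 4 slides. In chow the difference was -0.15, 0.06 and -0.08. Map2k1, which encodes the kinase MEK1, differed by 0.25 (SE 0.07), Gemin6, a gene of the SMN complex, by 0.32 (SE 0.09), and Pigh, of GPI anchor synthesis, by 0.36 (SE 0.10). A dimmer Pigh probe, above background on 8 of the 10 arrays, went the other way (-0.46). Rrm1, a ribonucleotide reductase subunit gene, differed by 0.76 (SE 0.24) but was above background on 1 mannitol and 3 glucose arrays.

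Among genes with the higher values in mannitol hearts and no overlap, Bcan, which encodes a proteoglycan of brain matrix, was above background on 4 of 5 mannitol arrays and 0 of 5 glucose arrays. Its level was -5.73, -6.05, -2.92, -2.69 and -3.33 with mannitol and -7.60, -6.15, -6.57, -6.32 and -7.80 with glucose, so that mannitol replicates 1 and 2 lay near the glucose values. Bcan entered the test only through the mannitol group and did not pass (adjusted p = 0.83), and it was above background on 0 of 5 non-perfused sucrose arrays and on 1 of 5 in each chow group. Fgf11, an intracellular fibroblast growth factor homologous factor gene, differed by -1.43 (SE 0.40, adjusted p = 0.83) and was above background on 4 mannitol and 2 glucose arrays. Of the groups compared, only the mannitol group, where Fgf11 is high, thus met the filter. Ckmt1, a mitochondrial creatine kinase gene, differed by -0.74 (SE 0.21), and Ppp1r10, which encodes a nuclear regulator of protein phosphatase 1, by -0.51 (SE 0.14), both with an adjusted p of 0.83. Aplp1, a relative of the amyloid precursor gene, was at -1.01, -0.63, -1.09, -0.97 and -1.20 with mannitol and at -2.04, -1.27, -1.47, -1.37 and -1.62 with glucose, without overlap (-0.57, SE 0.25, adjusted p = 0.97).

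**Figure D4:**
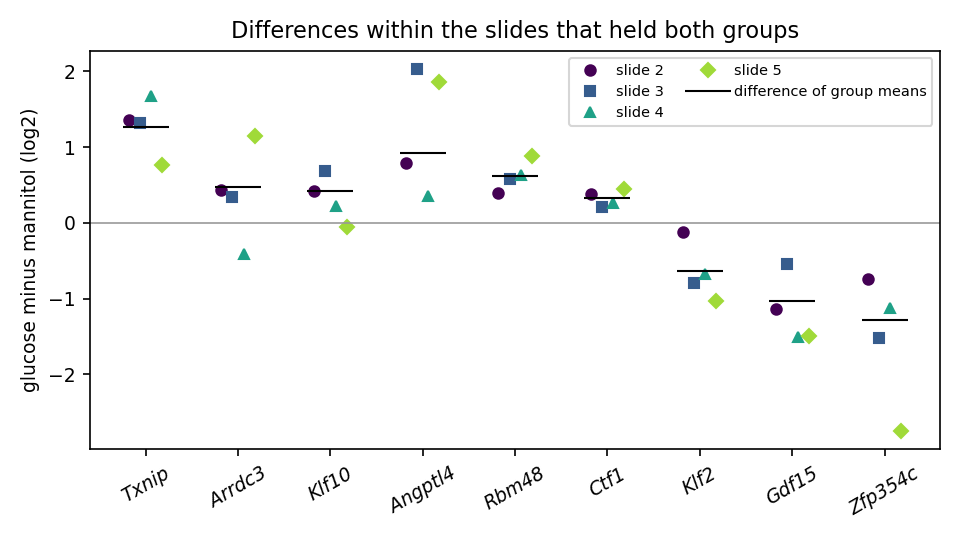
Symbols give the log2 difference of glucose and mannitol arrays of sucrose-fed rats within each of the 4 slides that held both groups, for 9 genes, and bars give the difference of the group means. Txnip, Angptl4, Rbm48 and Ctf1 are above 0 on all 4 slides and Klf2, Gdf15 and Zfp354c below 0 on all 4, while Arrdc3 and Klf10 change sign. For all but Angptl4, Arrdc3 and Klf10 the groups did not overlap, which fixes the sign on each slide.

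Markers of other cell types did not pass between the buffers. Of 13 marker lists 0 held a called gene (limma). Markers left untested were 4 of 6 for adipocytes, 3 of 10 for lymphocytes, 2 of 5 for mesothelium, 2 of 10 for endothelium, 2 of 8 for neutrophils, 2 of 7 for platelets, and 1 of 9 each for fibroblasts and red blood cells. Summed marker levels overlapped for red blood cells (6.89 to 12.5 with glucose and 6.08 to 22.3 with mannitol, against 589 to 971 in non-perfused hearts) and for neutrophils (0.157 to 0.390 and 0.184 to 0.240). Of 6 neutrophil markers tested 2 were above 0 and 4 below (median -0.12), from -1.22 (SE 0.48) for S100a9 to 0.62 (SE 0.39) for Csf3r. Of 8 red blood cell markers tested 1 was above 0 and 7 below (median -0.29), and the globin gene Hbb-bs differed by -0.79 (SE 1.01). Atrial markers had a summed level of 175 to 212 with glucose and 179 to 198 with mannitol, with 0.70 (SE 0.95) for Myl7 and -0.52 (SE 0.78) for Nppa.

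The same buffers were compared in chow-fed hearts, which share no array with the sucrose-fed ones. Every chow mannitol array lay in row 1 of its slide and every chow glucose array in row 2. Row and buffer thus cannot be told apart in chow, as column and buffer cannot in sucrose-fed hearts. In chow 0 genes were called (limma), and 715 (3.9%) had an unadjusted p under 0.05. Across the 18333 genes the differences in either diet had a Pearson correlation of -0.0072 and a Spearman correlation of -0.026, given as a description since genes are not independent. Of the genes with an unadjusted p under 0.05 in both diets, 11 were higher with glucose in both, 0 were lower in both and 33 went opposite ways. Values side by side in sucrose and chow, for genes chosen after their values were seen, were 1.26 and 0.85 for Txnip, 0.42 and 0.45 for Klf10, 0.48 and 0.41 for Arrdc3 and 0.93 and 0.57 for Angptl4. Values that lay further apart were -1.03 and 0.01 for Gdf15, 0.79 and -0.08 for Hdac8 and 0.33 and -0.14 for Ctf1.

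The test of the diet difference itself called 0 genes (limma), where 918 (5.01%) had an unadjusted p under 0.05 and the smallest adjusted p was 0.239. Rbm48 was the only named gene among the 5 of smallest p, with 0.62 in sucrose and -0.27 in chow and a diet difference of 0.89 (SE 0.20, adjusted p = 0.452). In chow its level was -1.66 to -1.99 with mannitol and -1.85 to -2.67 with glucose, with overlap. The Txnip call in sucrose-fed and not in chow-fed hearts is therefore no difference between the diets that this test shows.

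**Figure D5:**
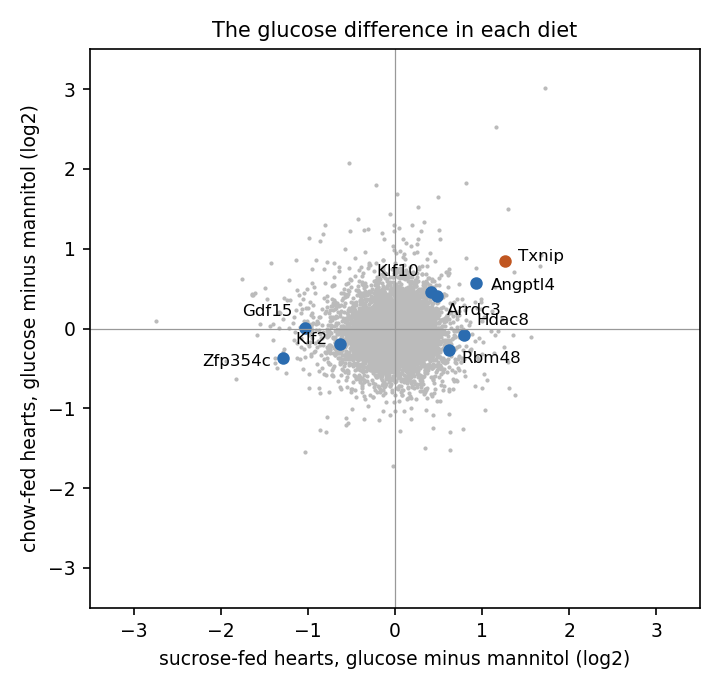
Each grey point is 1 of 18333 genes, with the log2 difference of glucose and mannitol means in sucrose-fed hearts on the horizontal axis and in chow-fed hearts on the vertical axis. Txnip (1.26 and 0.85) and Angptl4 (0.93 and 0.57) lie in the upper right, Gdf15 and Hdac8 lie near 0 in chow, and the cloud has no slope.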

How the data were processed

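The deposited files are Agilent one-colour scanner tables of 30 rat arrays. Their processed signals are intensity values that, per the file headers, Feature Extraction 11.0.1.1 corrected for background and spatial trend, with a floor for low signals and no scaling across arrays. The submitters' processing notes name version 10.3. The authors' deposited series table holds log2 values, whose scaling between arrays is unknown (array medians 7.23 to 7.24), and it served as an alternative.

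Spots of 1 probe were averaged without outlier spots, and log2 signals were set against each array's 75th percentile. Accessions gave 18355 of 30367 probes a symbol, and the brightest probe stood for a gene. The filter asked for 4 or more arrays of some group on which the gene was well above background, and kept 18333 of 26785 genes, 11304 of them with a symbol. limma 3.58.1 in R 4.3.3 was fitted with 6 group means over all 30 arrays, Benjamini-Hochberg adjustment at 0.05 and 95% intervals. The scripts were tested on simulated data. The groups, the tests and the 44 gene lists were chosen with earlier results of these data known. The genes named are the called gene, those of smallest p, the largest differences without overlap, up to 4 called or else 2 members of each list, 28 listed ones, and those of smallest p for the diet difference. Other list members are named for their role, after their values were seen.

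Alternatives were other scalings (quantile, median), normexp background correction (offset 50, on median foreground), other filters, the mean of a gene's probes, slide or replicate number as a block, only the groups compared, trend and robust options, array weights, and leaving out arrays. Leaving out the 4 noisy arrays together with mannitol replicate 1, and that array with the slide block, was chosen after seeing the data.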

Additional observations from a re-analysis of the deposited data

Results flagged for a closer look

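In 210 groups of 5 values (105 genes named by rule, glucose and mannitol hearts of sucrose-fed rats), 18 held a heart far from the other 4 by Dixon's ratio. Chance alone marks about 1 in 20 such groups, and no explanation was tested. For Txnip, glucose replicate 3 was low (3.46, next value 4.18), and without it the difference was 1.42 (adjusted p = 0.000781, limma).

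Among the glucose hearts, replicate 1 was high in Pigh (-1.67), Rpl18 (6.07) and Sdhd (6.54). Replicate 2 was high in Ckmt1 (-2.86) and Sel1l (-3.09) and low in Gfpt1 (-4.26). Replicate 3 was high in Acss2 (1.63) and Gpr19 (-1.75).

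Among the mannitol hearts, replicate 1 was low in Hk2 (-1.38) and high in Pik3ca (1.43), and replicate 2 was high in Rpl18 (5.82). Replicate 3 was high in Ctf1 (-2.47) and in Tff3, which encodes a secreted trefoil peptide (-2.47, next value -5.06). Replicate 4 was high in Camk2d, a calcium-dependent kinase gene (0.068, next value -1.40), and low in Bbc3 (0.55) and Tmem116 (0.52). Replicate 5 was high in Sesn2, a stress-responsive gene (0.17, next value -2.11).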

How the results depend on the processing

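In sucrose-fed hearts 1 gene was called, and Txnip kept its direction in all 26 alternatives. The count was 2 with the slide as a fixed block (also without mannitol replicate 1), the slide as a random block, array weights, or without the 4 arrays of noisy negative controls. It was 0 in the authors' deposited values, with only the groups compared, with the replicate block, and without the noisy arrays and mannitol replicate 1 together (Txnip adjusted p = 0.0689). Same-numbered arrays correlated between -0.16 and 0.14 in their residuals (mean 0.017), so the numbers do not pair the hearts, and arrays of 1 slide correlated at 0.16 on average. With the replicate block the Txnip difference was 1.26 (adjusted p = 0.0654). Leaving out 1 array gave 0 to 2 genes, 2 without mannitol replicate 1 (Zfp354c) or 4 (Plaat1), and 0 without mannitol replicate 5 or glucose replicates 1, 2, 4 and 5. The count in chow and that of the diet difference were 0 in every alternative, leaving out 1 array included (0 to 0). The causes were not tested. Of 2705 values of named genes under alternatives, 2657 were unchanged and 32 moved by at least the replicate spread. A further 7 were newly called, 9 lost the call (all Txnip) and 0 reversed. Reversed counts a change of sign only in Txnip or in a gene that was newly called. Any other change of sign was counted as unchanged or moved, by its size. Unchanged means a shift below the replicate spread or, for Txnip, a call that held. The authors' values moved the median difference of all genes to 0.05 in sucrose-fed and -0.15 in chow-fed hearts. Gfpt1 was 0.15 in the main setting and 1.02 in the authors' values. Low signals limit genes such as Bcan, and the number of arrays limits all.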
